A study of Mus musculus with 2 samples.

Results

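The 8 genes described here, Nkx1-2, Hes3, Evx1, Grsf1, Tril, Slain1, Lix1 and Crmp1, were taken by symbol from the 32286 features that both libraries list. They were chosen by their levels in these same libraries, which were raised in caudal epiblast cells or in cells with both Sox2 and T, so how far those cells stand above other classes is given as a description, without a test. Tests are given for other contrasts: between the neural and the mesodermal side, and by detection of 1 gene among caudal epiblast-like cells. The data are single-cell RNA sequencing (10x Genomics, 5′ kit) of caudal tissue from wild-type C57BL/6J mouse embryos at E8.5. There were 2 libraries, replicate 1 and replicate 2, each from pooled tissue. No treated, mutant or lineage-traced group was measured. No label states that different embryos went into each library. The libraries differed in Xist, Hoxc10 and Pou5f1, as given below, and what sets them apart was not tested. The main fits take the library as a block. Their p-values therefore set differences between groups of cells against counting error and a spread between the 2 libraries that is shared across genes. No label states whether the variation between libraries is technical or between embryos.

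The caudal lateral epiblast lies beside the primitive streak of the elongating embryo. Its neuromesodermal progenitors supply both the spinal cord and the somites, and they are commonly recognised by joint expression of the transcription factors Sox2 and T (brachyury). Wnt and FGF signals hold cells in this zone, whereas cells that leave it either switch on neural tube genes or pass through the streak and switch on presomitic mesoderm genes such as Tbx6. Nkx1-2, a homeobox gene, is a textbook marker of this epiblast and of the early neural plate next to it.

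Cells were sorted into classes by counting detected markers, none of them among the 8 genes. A caudal epiblast-like cell had UMIs (unique transcript molecules) of at least 3 of the 6 markers Epha5, Cyp26a1, Fgf17, Wnt3a, Fgf8 and T, at most 2 presomitic mesoderm markers and at most 1 neural tube marker. Mesoderm-turning cells carried the same epiblast markers and at least 4 of 6 presomitic mesoderm markers. Neural-turning cells carried at least 2 epiblast markers and at least 2 of 6 neural tube markers. Presomitic mesoderm-like and neural tube-like cells had their own markers and fewer epiblast markers, under 3 in the former and under 2 in the latter. Cells of these 5 classes with 3 or more of 6 epithelial genes were set aside, a step chosen after seeing the data. It removed 133 of 891 caudal epiblast-like cells in replicate 1 and 151 of 770 in replicate 2. This left 758 and 619 caudal epiblast-like cells, 698 and 554 mesoderm-turning cells and 263 and 198 neural-turning cells in replicates 1 and 2. A level here is a gene's UMIs per 1000000 UMIs summed over a class in 1 library (CPM). The 6 epiblast markers summed to 1527 and 1390 CPM in caudal epiblast-like cells, and outside the gate's own genes Cdx4, Cdx2 and Greb1 were among those that led the class. Blood markers summed to 2.48 and 1.23 CPM (2 and 1 of 6 at 0) and endothelium markers to 5.14 and 18.6 CPM (0 and 1 of 6 at 0).

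The libraries were not alike. Their median depth per retained cell was 17872.5 and 13685.5 UMIs, and in caudal epiblast-like cells 14033.5 and 14517 UMIs. Of 6052 genes compared in those cells, 1.19% differed at least 2-fold between libraries. The genes that stood apart included Pou5f1, a pluripotency factor (79.2 CPM in replicate 1 and 1.45 in replicate 2), the posterior Hox gene Hoxc10 (0.443 and 69.0 CPM) and Xist, which silences the X chromosome in females (166 CPM and 0). The libraries shared 114 barcode sequences. Because of these differences every level below is given for each library.

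The 8 genes lie on 6 chromosomes (GRCm38, GENCODE M21 gene models). Nkx1-2 is at chr7:132594878-132599637 on the minus strand, inside a same-strand Fgfr2 model. Hes3 is at chr4:152285972-152291662 (minus strand). Evx1 is at chr6:52313498-52318378 (plus strand) and overlaps the antisense gene Evx1os. Tril is at chr6:53815468-53820830 (minus strand). Grsf1 is at chr5:88659448-88676171 (minus strand) and Crmp1 at chr5:37241940-37292133 (plus strand). Slain1 is at chr14:103650228-103704907 and Lix1 at chr17:17402672-17459387, both on the plus strand.

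RefSeq promoter windows (GRCm38.p6, 250 bases before the start) were found for 7 of the 8 genes, with 9 starts in all, and not for Hes3. Letters recognised by factors active in the caudal epiblast were searched on both strands. CTTTGA (TCF/LEF, the Wnt effectors) and GGTGTGA (T-box, the family of T) were in none of the 9 windows, against 13.8% and 3.33% of 32851 mouse windows. TTTATNG (CDX) was in the Evx1 window only (9.81% of all windows), and ATTGTT (SOX) was in the Evx1 and Lix1 windows (9.42%). GGGCGG (the GC box of SP factors) was in 6 of 9 windows, against 32.7% of all. The 3 windows that bear on these counts are printed here, in capitals where the letters matched. Evx1 is shown for its CDX and SOX matches, which overlap, Lix1 for a SOX match without GC boxes, and Nkx1-2 for a window with GC boxes alone.
Evx1, chr6:52313248-52313497, plus strand: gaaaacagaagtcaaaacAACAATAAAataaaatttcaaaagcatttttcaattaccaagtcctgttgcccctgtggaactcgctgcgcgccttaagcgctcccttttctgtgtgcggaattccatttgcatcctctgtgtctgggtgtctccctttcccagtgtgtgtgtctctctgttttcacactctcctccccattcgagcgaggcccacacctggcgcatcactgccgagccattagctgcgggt
Lix1, chr17:17402436-17402685, plus strand: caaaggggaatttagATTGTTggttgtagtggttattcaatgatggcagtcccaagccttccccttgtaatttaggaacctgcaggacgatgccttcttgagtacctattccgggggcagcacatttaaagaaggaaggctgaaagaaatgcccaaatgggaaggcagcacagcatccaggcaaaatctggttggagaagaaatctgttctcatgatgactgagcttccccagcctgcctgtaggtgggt
Nkx1-2, chr7:132599638-132599887, minus strand: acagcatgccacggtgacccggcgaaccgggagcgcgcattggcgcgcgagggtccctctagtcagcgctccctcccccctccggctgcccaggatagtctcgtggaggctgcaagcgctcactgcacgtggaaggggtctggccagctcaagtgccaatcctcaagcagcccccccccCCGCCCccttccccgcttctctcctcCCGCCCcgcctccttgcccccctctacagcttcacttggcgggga
The Evx1 window holds 10 CpG, the Lix1 window 2 and the Nkx1-2 window 19, where the median over all windows is 6. A match is a run of letters and was not measured here as a bound site.

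The first question was how each gene is distributed over the gated cell classes. Where an interval is given it is an exact Poisson 95% interval and covers counting error only. Of the 8 genes, 7 had their highest mean level in a caudal epiblast-like, neural-turning or mesoderm-turning class (6 with 1 more marker required). Levels are compared between classes and not between genes.

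Nkx1-2 was at 279 CPM (270 to 289) in caudal epiblast-like cells of replicate 1 and 215 (206 to 225) in replicate 2. In neural-turning cells it was at 261 and 156 CPM, a range that overlaps the caudal epiblast-like values. Neural tube-like cells followed at 106 and 44.5 CPM and mesoderm-turning cells at 62.9 and 23.7. Somite-like cells were at 5.77 and 3.08 CPM, and blood-like cells of replicate 2 were at 2.93. Thinned to 9000 UMIs per cell, 88.4% and 78.5% of caudal epiblast-like cells had a Nkx1-2 UMI (85.6% and 83.4% before thinning). The same share was 3.56% and 4.79% in endothelium-like cells, whose median depth was 22046.5 and 14278 UMIs.

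Hes3 encodes a basic helix-loop-helix repressor of the Hes family. Its highest level was in neural-turning cells, at 231 and 192 CPM. Neural tube-like cells were at 177 and 158 CPM and caudal epiblast-like cells at 162 and 130, and these values overlapped. Mesoderm-turning cells were far lower, at 18.9 and 7.19 CPM, and the other 6 classes had means below 5 CPM. Thinned, 64.8% and 48.7% of caudal epiblast-like cells had a Hes3 UMI (65.8% and 54.9% unthinned), against 5.34% and 0.532% of endothelium-like cells.

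Evx1, a homeobox gene of the even-skipped family that marks the primitive streak, was distributed over the mesodermal side instead. It was at 136 and 78.3 CPM in caudal epiblast-like cells and at nearly the same 126 and 73.7 in mesoderm-turning cells. Lateral plate-like cells were next at 48.0 and 51.1 CPM. Neural-turning cells were lower at 35.3 and 24.3 CPM, and neural tube-like cells were at 3.08 and 3.78, close to the blood-like value of 3.25. Thinned, 67.9% and 49.3% of caudal epiblast-like cells had an Evx1 UMI (77.8% and 61.6% unthinned), against 6.76% and 4.26% of endothelium-like cells. Evx1os ran alongside it (99.2 and 65.5 CPM in caudal epiblast-like cells). The use of strand in counting is not stated, so reads of Evx1 and Evx1os may not be told apart where the models overlap.

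Tril, Slain1 and Lix1 were highest in caudal epiblast-like cells. For each, the lower of those values was above both values of every other ranked class. How many of all genes do so was not counted. Lix1, named for its expression in the limb, was at 120 and 155 CPM there, against 50.4 and 87.9 in neural-turning and 53.4 and 50.7 in mesoderm-turning cells. Tril, a membrane protein that binds Toll-like receptors, was at 36.7 and 86.8 CPM and its next class, mesoderm-turning cells, at 14.8 and 30.4. Slain1, a microtubule plus-end protein, was at 41.6 and 51.0 CPM. Slain1 was also present at 27.5 and 31.5 CPM in gut endoderm-like and 24.5 and 22.3 in surface ectoderm-like cells, but at 2.34 and 1.76 in presomitic mesoderm-like cells.

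Crmp1, a cytosolic mediator of semaphorin signalling, was the member least tied to this zone. Its highest mean was in endothelium-like cells (95.2 and 101 CPM), which overlapped the caudal epiblast-like values of 116 and 70.8. Grsf1, an RNA-binding protein of mitochondrial RNA granules, was detected in every class. It was at 835 CPM in caudal epiblast-like cells of replicate 1 but 220 in replicate 2, against 109 and 102 in endothelium-like cells.

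**Figure D1:**
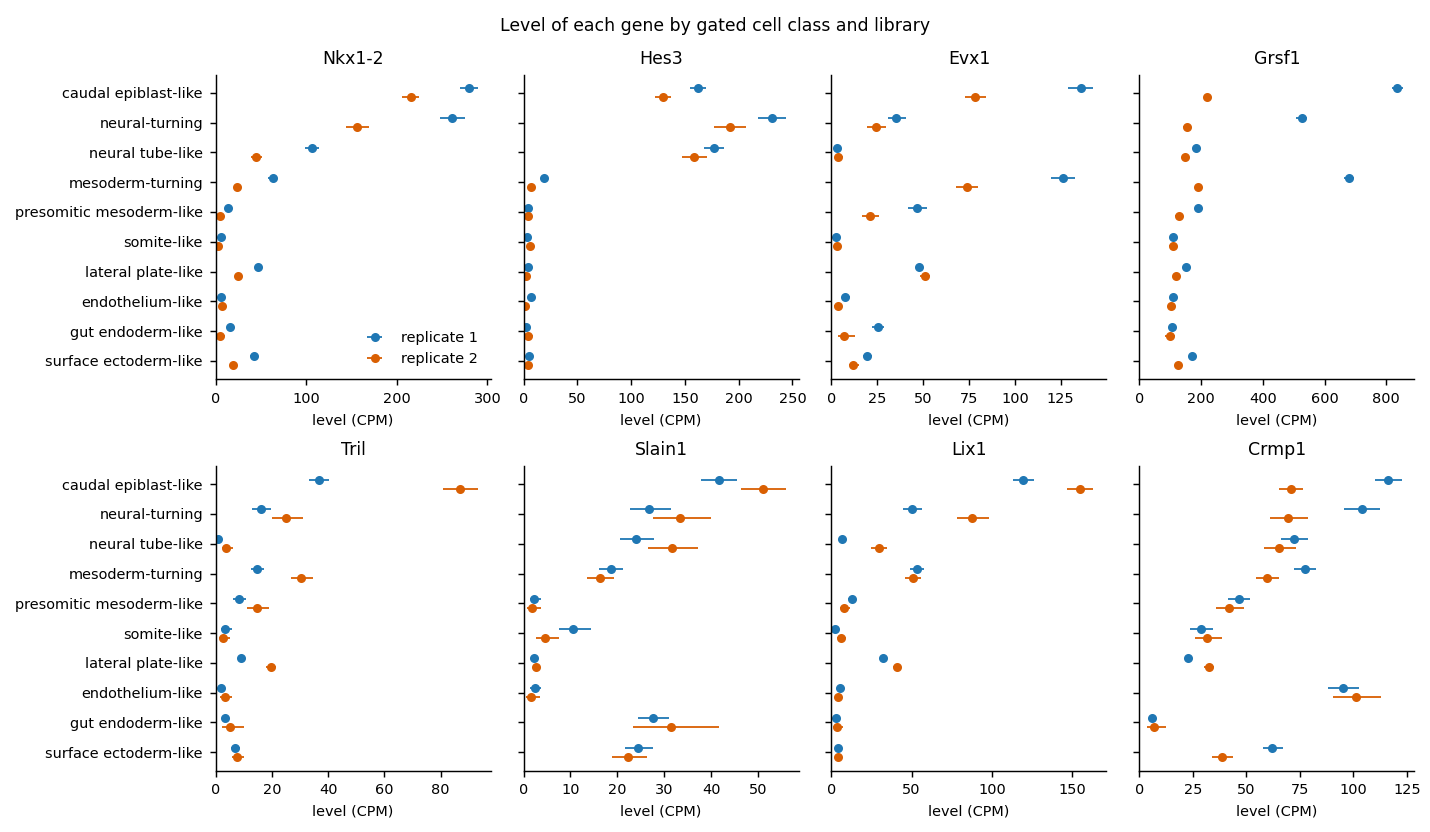
Level of each gene (CPM, horizontal axis, scaled per gene) in the 10 classes that both libraries filled with 50 cells or more; points are libraries and bars exact Poisson 95% intervals. Hes3 drops from 162 and 130 CPM in caudal epiblast-like cells to 18.9 and 7.19 in mesoderm-turning cells, while Evx1 stays at 126 and 73.7 there.

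Cells that had both Sox2 and T, the usual definition of a neuromesodermal progenitor, were not the highest for Nkx1-2 or Hes3 in either library. Nor were they for Evx1 or Grsf1. They were highest in both libraries for Lix1 (135 and 190 CPM) and Crmp1 (126 and 74.1), and for Tril and Slain1 in replicate 1 only. For Lix1 and Crmp1 the Poisson intervals overlapped those of the groups with 1 or neither transcript. Among thinned caudal epiblast-like cells there were 46 and 48 double-positive cells, with Nkx1-2 at 348 (293 to 410) and 218 CPM (176 to 266). Cells with Sox2 alone (48 and 68) had the highest Nkx1-2, at 373 (317 to 435) and 253 CPM (215 to 296), and these intervals overlapped. Cells with neither transcript (190 and 208 cells) had Nkx1-2 at 332 and 244 CPM and Hes3 at 209 and 170, against 126 and 162 for Hes3 in double-positive cells. Cells with T alone (304 and 212) had Nkx1-2 at 241 and 168 CPM, below the other 3 groups in each library. Sox2 itself was sparse (19.7 and 29.2 CPM), so its absence from a cell does not show that the cell lacks the transcript.

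At the edge of the caudal epiblast gate, cells with 3 epiblast markers (145 and 133 cells, just inside) had Nkx1-2 at 343 and 259 CPM. Cells with 2 markers and at most 1 of any unrelated class (177 and 119 cells, just outside, of which 66 and 37 had none of an unrelated class) had Nkx1-2 at 284 and 186 CPM. Hes3 was at 232 and 193 CPM at 3 markers and at 102 and 50.7 at 6. Evx1 instead was at 104 and 47.2 CPM at 3 markers and at 152 and 110 at 6. Median depth moved with these counts, from 4977 and 10577 UMIs at 2 markers to 10054 and 13499 at 3 and 16527 and 15213 at 6. The part of depth was not tested.

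The second question was how the genes change along the way to mesoderm or to neural tube. Hes3 and Nkx1-2 were lower in cells with more presomitic mesoderm markers, among cells with the epiblast set. In replicate 1, Nkx1-2 was at 285 CPM with 2 presomitic markers, 232 with 3, 120 with 4 and 41.3 with 5, and in replicate 2 at 216, 128, 48.4 and 15.2. Hes3 over the same steps was at 162, 86.8, 33.1 and 13.7 CPM, and at 101, 46.5, 8.14 and 6.97. The lower Hes3 began earlier in replicate 2, where it was at 238 CPM in cells without a presomitic marker and 146 with 1. Evx1 was higher in the middle of this range, at 164 CPM with 3 and with 4 markers in replicate 1 and 107 with 3 in replicate 2. Tril, Lix1 and Slain1 were no lower with 3 markers than with none and were lower with 5. Tril was at 39.2 and 86.8 CPM with 3 and at 10.7 and 24.1 with 5, and Lix1 at 133 and 141, then 42.6 and 40.4. Slain1 was at 50.5 and 52.1, then 13.4 and 12.7 CPM. Median depth differed little between 3 and 5 markers (15764 and 14643, then 15926.5 and 14117.5 UMIs).

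The neural steps took cells with at least 2 epiblast markers, where the presomitic steps required 3. Along the neural markers Evx1, Tril and Lix1 were lower in cells with more markers, and Hes3 was not. Evx1 was at 134 and 84.7 CPM in cells with none, 55.9 and 33.9 with 2, and 23.6 and 12.6 with 3. Hes3 over these steps was at 140 and 115, then 253 and 166, then 209 and 241 CPM. Tril was at 33.5 and 83.3 CPM with none and 13.2 and 17.1 with 3, and Lix1 at 110 and 138, then 42.3 and 72.0. Median depth rose from 11347 and 12919 UMIs with none to 20771 and 18062 with 3, and its part in these differences was not tested.

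**Figure D2:**
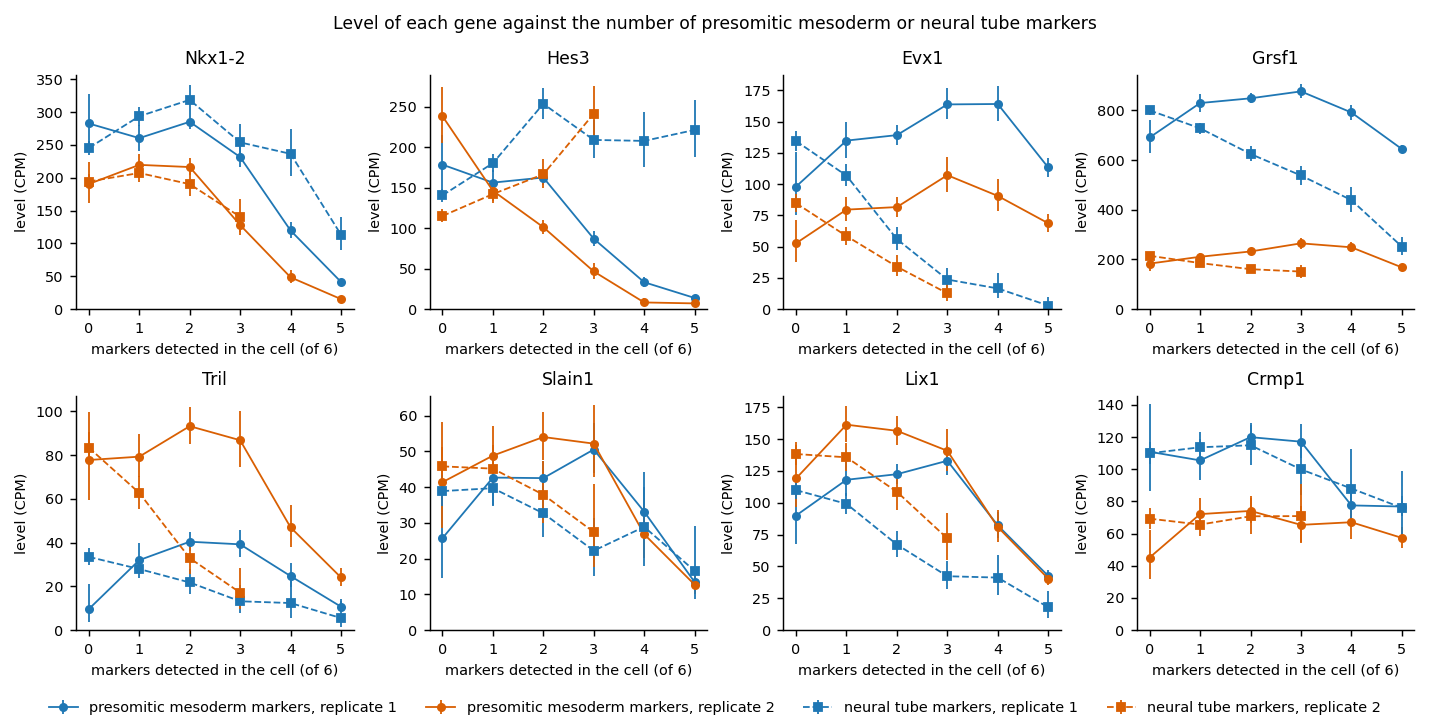
Level of each gene (CPM, vertical axis from 0) against the number of markers detected in a cell. Solid lines are presomitic mesoderm markers, in cells with at least 3 epiblast markers. Dashed lines are neural tube markers, in cells with at least 2 epiblast markers. Bars are exact Poisson 95% intervals and bins under 20 cells are left out. Hes3 goes from 162 to 13.7 CPM between 2 and 5 presomitic markers in replicate 1, and Evx1 from 134 to 23.6 between 0 and 3 neural markers.

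The comparison of neural tube-like with presomitic mesoderm-like cells holds no caudal epiblast class, so it was tested. The test was edgeR's quasi-likelihood test on summed counts, with the library as a block and Benjamini-Hochberg adjustment over 13588 genes. Epiblast markers were still unequal, summing to 203 and 187 CPM in presomitic mesoderm-like and 37.9 and 91.2 in neural tube-like cells. The part of this difference was not tested. Of the 8 genes, 3 were higher and 2 lower in neural tube-like cells, where 18.1% of all genes tested passed (9.47% higher and 8.68% lower). Hes3 was at 177 and 158 CPM in neural tube-like and 4.53 and 4.03 in presomitic mesoderm-like cells, a log2 difference of 5.35 (SE 0.346, adjusted p = 1.17e-07). Slain1 was at 24.0 and 31.6 against 2.34 and 1.76 CPM (log2 3.70, SE 0.319, edgeR adjusted p = 1.50e-06). Nkx1-2 was at 106 and 44.5 against 13.2 and 4.53 CPM (log2 3.06, SE 0.267, edgeR adjusted p = 1.76e-06).

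For these 3 genes the neural tube-like values lay above the presomitic mesoderm-like values in both libraries, without overlap. Evx1 ran the other way, at 3.08 and 3.78 CPM in neural tube-like and 46.8 and 21.1 in presomitic mesoderm-like cells (log2 -3.36, SE 0.377, edgeR adjusted p = 1.97e-05). Tril was also lower, at 0.938 and 3.78 against 8.19 and 14.6 CPM (log2 -2.39, SE 0.374, edgeR adjusted p = 3.61e-04). Crmp1 (log2 0.65, edgeR adjusted p = 0.0794) and Grsf1 (log2 0.10, edgeR adjusted p = 0.920) did not pass, although Crmp1 did with no filter on low counts (edgeR adjusted p = 0.0127). Lix1 did not pass either (edgeR adjusted p = 0.445) and its difference had opposite signs in the libraries, -0.79 and 1.73.

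Within the progenitor zone, neural-turning cells were set against mesoderm-turning cells in the same fit. Of the 8 genes, 3 were higher and 1 lower in neural-turning cells, where 10.4% of genes tested passed (5.11% higher and 5.24% lower). Hes3 was higher by a log2 difference of 4.04 (SE 0.274, edgeR adjusted p = 3.03e-07), and Nkx1-2 by 2.35 (SE 0.206, edgeR adjusted p = 3.33e-06). Slain1 was at 26.9 and 33.3 CPM against 18.6 and 16.3 (log2 0.78, SE 0.222, edgeR adjusted p = 0.0359). Evx1 was lower by -1.72 on the log2 scale (SE 0.262, edgeR adjusted p = 5.76e-04). Lix1, Crmp1, Tril and Grsf1 did not pass. In the fit without the replicate block, Nkx1-2 (edgeR adjusted p = 0.0592), Evx1 (0.0801) and Slain1 (0.153) no longer passed in this second comparison, and Hes3 still did.

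Lists around the 8 genes showed which of their relatives moved in the neural tube-like against presomitic mesoderm-like comparison. Of 9 Hes and Hey relatives, 7 were tested, with 1 higher (Hes5, a Notch target of neural progenitors) and 3 lower (Hes7, Heyl and Hey1). Hes5 rested on replicate 2, at 110 against 12.7 CPM (30.2 against 24.0 in replicate 1), and Heyl on 1 and 13 UMIs. Hes7, the somite clock gene, was one of the markers that set the presomitic class. Among 16 mitochondrial RNA granule genes, the partners of Grsf1, 1 was higher and 2 lower, or 18.8% beside 18.1% of all genes tested, with a median log2 difference of 0.015 against -0.0014 for all genes. Of 10 microtubule plus-end genes, the partners of Slain1, 1 was higher (Kif18a), a share of 10.0%. Of 9 tested relatives of the other members, and of 5 tested Toll-like receptor partners of Tril, edgeR called 0 (1 in each list at an unadjusted p under 0.05, DESeq2 0). Of 12 Wnt targets 7 were lower, among them Lef1 and Axin2, and 1 was higher (Lgr5). Of 10 FGF targets 7 were lower, among them Spry4 and Dusp6. The same comparison had 9 of 15 S phase genes higher in neural tube-like cells.

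Co-detection in single cells was then described in caudal epiblast-like cells thinned to 9000 UMIs, which kept 588 and 536 cells and left out 170 and 83. Most cells held 4 to 6 of the 8 genes. All 8 were found together in 10 cells of replicate 1 (1.70%, where the product of the single shares gives 1.26%) and in 6 of replicate 2 (1.12%, product 0.845%). Of 28 pairs, 1 had an odds ratio interval above 1 in both libraries. That pair was Nkx1-2 and Hes3, at 2.29 (exact 95% interval 1.33 to 3.96) and 1.88 (1.21 to 2.96).

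No pair had an interval below 1 in both libraries. Nkx1-2 and Evx1 came nearest, at 0.416 (0.198 to 0.810) in replicate 1 and 0.722 (0.465 to 1.11) in replicate 2. Hes3 and Evx1 were at 0.692 (0.467 to 1.02) and 0.730 (0.512 to 1.04). Cells are not replicates of a condition, and these intervals cover counting error only. Without thinning, 15 pairs lay above 1 in both libraries. After removal of the barcodes that Scrublet called doublets, 0 pairs did.

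**Figure D3:**
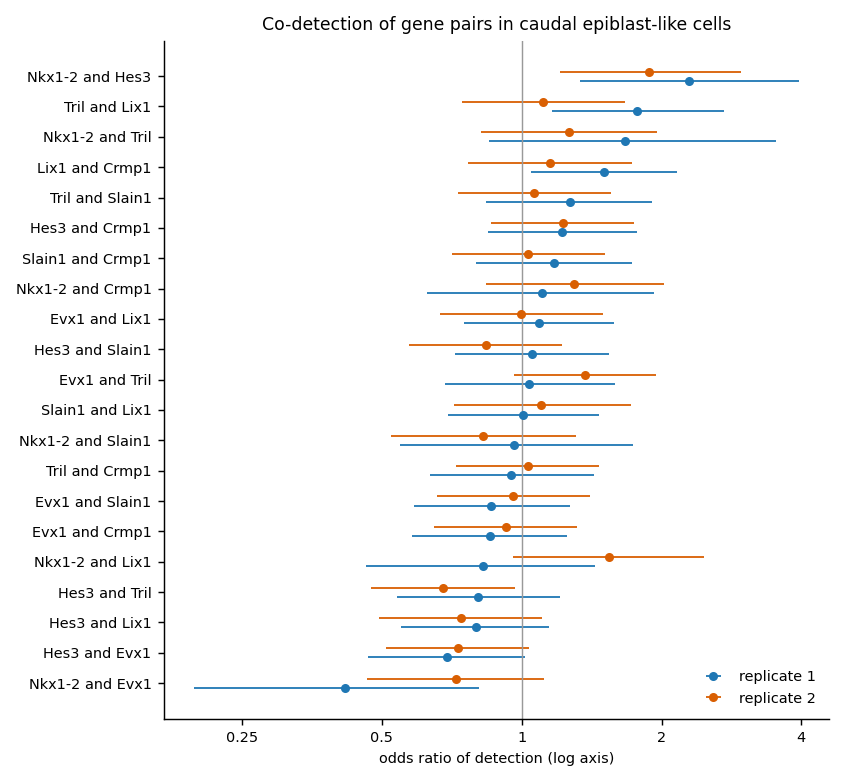
Odds ratio of joint detection (log axis) for the 21 gene pairs without Grsf1, which was found in nearly all thinned cells of replicate 1; points are libraries and bars exact 95% intervals. Nkx1-2 and Hes3 lie right of 1 in both libraries (2.29 and 1.88).

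The next comparisons asked which other genes went with detection of Nkx1-2, Hes3 or Evx1 inside the caudal epiblast-like class. Counts of thinned cells were summed by library, so each fit had 4 values per gene and 1 residual degree of freedom. The spread was borrowed across genes by edgeR, so a gene's SE could be smaller than the gap between its own libraries. T with Hes3 had an SE of 0.095 and log2 differences of -0.85 and -1.33 in the libraries. The p-values of these fits therefore do not measure how far a single gene varies between libraries. DESeq2 called far fewer genes in each fit, and its numbers are given beside those of edgeR. Without the replicate block edgeR called 0 genes in each fit, so all calls below rest on pairing the cells of a library. Gate markers are included, since a marker can vary in level among cells that all passed the gate.

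Nkx1-2 was detected in 520 of 588 and 421 of 536 cells. With edgeR, 20 genes were higher and 46 lower in these cells (0.663% of 9950; 0.201% higher and 0.462% lower). DESeq2 called 1 and 7. Hes3 was at 175 and 137 CPM in Nkx1-2-detected and 93.8 and 90.5 in undetected cells, above it in both libraries (log2 0.68, SE 0.130, edgeR adjusted p = 6.15e-05). It was the only one of the other 7 members to pass, and DESeq2 did not call it.

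Gbx2, a homeobox gene of the early neural plate, was at 44.0 and 62.0 CPM in Nkx1-2-detected against 19.4 and 27.3 in undetected cells (log2 1.14, edgeR adjusted p = 1.57e-04). Cdx1, Zic2, Myc, Pim1, Zfp644 and Fgfbp3 were also higher, although Fgfbp3 rested on replicate 1 (115 against 30.7 CPM) and was at 7.39 against 3.77 in replicate 2. The Cdx1 difference was mostly in replicate 1 (506 against 285 CPM, and 70.4 against 61.3 in replicate 2). Of the neural tube list 7 genes were tested, with 1 higher (Ncam1, log2 0.40, edgeR adjusted p = 0.00724) and 2 lower (Crabp1, -0.57, 9.35e-08, and Pax3, -0.95, 0.0102). Crabp1, although in that list, was lower in neural tube-like than in presomitic mesoderm-like cells (log2 -1.61, edgeR adjusted p = 0.00678). Pax3 rested on replicate 2 (17.1 against 46.2 CPM, and 23.5 against 24.3 in replicate 1). Of 24 other caudal epiblast genes 3 were higher (Gbx2, Sox2 and Cdx1) and 3 lower, all gate markers. These were Cyp26a1 (log2 -0.96, edgeR adjusted p = 1.20e-28), T (-0.83, 1.06e-09) and Fgf8 (-0.30, 0.00370). Of 9 tested presomitic mesoderm genes 4 were lower, among them Cited1, at 78.4 and 62.3 against 227 and 137 CPM (log2 -1.39, edgeR adjusted p = 1.24e-26). Of 9 tested genes of epithelial-mesenchymal transition 3 were lower, Snai1, Cdh11 and Fn1.

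Largest among the lower genes named by size were Sct (log2 -2.56, edgeR adjusted p = 7.03e-21), Msx2 (-2.29, 2.63e-15) and Phlda2 (-2.05, 1.45e-23). Genes averaging under 20 CPM were not named by size. Among these, Msgn1 (log2 -4.21, edgeR adjusted p = 1.84e-14, 10 against 34 UMIs) and Mixl1 (-3.45, 2.69e-14, 21 against 40 UMIs) were lower still. Msgn1 is a marker of the presomitic mesoderm gate. Sct encodes the hormone secretin, and Msx2 is a BMP-responsive homeobox gene. The keratins of simple epithelia, Krt8 and Krt18, were lower too (log2 -1.26 and -1.22). The part of epithelial transcripts in the other differences was not tested. DESeq2 also called Sct, Msx2, Phlda2 and Cited1, and none of the other 12 genes named by size.

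Hes3 was detected in 381 of 588 and 261 of 536 cells. With edgeR, 30 genes were higher and 70 lower (1.00% of 9968; 0.301% higher and 0.702% lower). DESeq2 called 0 and 4. Nkx1-2 was at 316 and 239 CPM in Hes3-detected against 252 and 184 in undetected cells (log2 0.34, SE 0.068, edgeR adjusted p = 2.26e-04), and DESeq2 did not call it.

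Of the lower genes named by size, the largest changes were in Efna1 (log2 -1.31, edgeR adjusted p = 2.61e-12), Lmo2 (-1.23, 2.76e-08), Amot (-1.16, 1.69e-11) and Phlda2 (-1.07, 7.86e-08). DESeq2 called none of these. T and Cyp26a1, both markers of the caudal epiblast gate, came next. T was at 95.9 and 55.8 CPM in Hes3-detected against 173 and 141 in undetected cells (log2 -1.06, SE 0.095, edgeR adjusted p = 3.12e-25). Cyp26a1, which degrades retinoic acid, was at 141 and 188 against 259 and 418 CPM (log2 -1.04, SE 0.069, edgeR adjusted p = 3.35e-47). Both were lower in Hes3-detected cells in both libraries, and DESeq2 called both. Msgn1 (log2 -2.84, edgeR adjusted p = 9.85e-05, 7 against 37 UMIs) and Mixl1 (-2.55, 5.21e-06, 12 against 49 UMIs) had larger drops. They averaged under 20 CPM and were not named by size. Of 24 other caudal epiblast genes 11 were lower, 4 of the 10 tested Wnt targets (T, Axin2, Nkd1 and Sp5) and 5 of 9 tested presomitic mesoderm genes. The 11 included all 6 markers of the caudal epiblast gate, T, Cyp26a1, Wnt3a, Fgf8, Fgf17 and Epha5. T, Axin2 and Sp5 are in both of the first lists. DESeq2 called 3 of the caudal epiblast genes, 1 of the Wnt targets and 1 of the presomitic mesoderm genes. The caudal epiblast genes that were higher were Gbx2, Sox3 and Cdx1. Cdx1 rested on replicate 1 (520 against 383 CPM) and had the opposite sign in replicate 2 (60.4 against 75.8). Zic2 (log2 0.80, edgeR adjusted p = 1.20e-08) and Zic5 (0.67, 1.77e-04), zinc finger factors of the neural plate, were higher as well. Of the neural tube list 6 genes were tested and edgeR called 0 (3 at an unadjusted p under 0.05, DESeq2 0).

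Evx1 was detected in 399 of 588 and 264 of 536 cells, and it divided the class the other way with smaller differences. With edgeR, 10 genes were higher and 5 lower (0.151% of 9966; 0.100% higher and 0.0502% lower). DESeq2 called 0 and 0, and 638 genes had an unadjusted edgeR p under 0.05. T was at 130 and 122 CPM in Evx1-detected against 112 and 76.8 in undetected cells (log2 0.42, edgeR adjusted p = 0.00792). Cyp26a1 (log2 0.38), Fgf8 (0.33), Fgf17 (0.30) and Id3 (0.53) were higher too. T, Cyp26a1, Fgf8 and Fgf17 are markers of the caudal epiblast gate. Hes3 was lower, at 152 and 110 against 187 and 141 CPM (log2 -0.34, SE 0.081, edgeR adjusted p = 0.0266), as was the neural progenitor factor Sox3 (log2 -0.38, edgeR adjusted p = 0.0383). The Hes3 call was lost with DESeq2, with no filter on low counts (adjusted p = 0.0683) and with the epithelial cells kept (0.594).

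**Figure D4:**
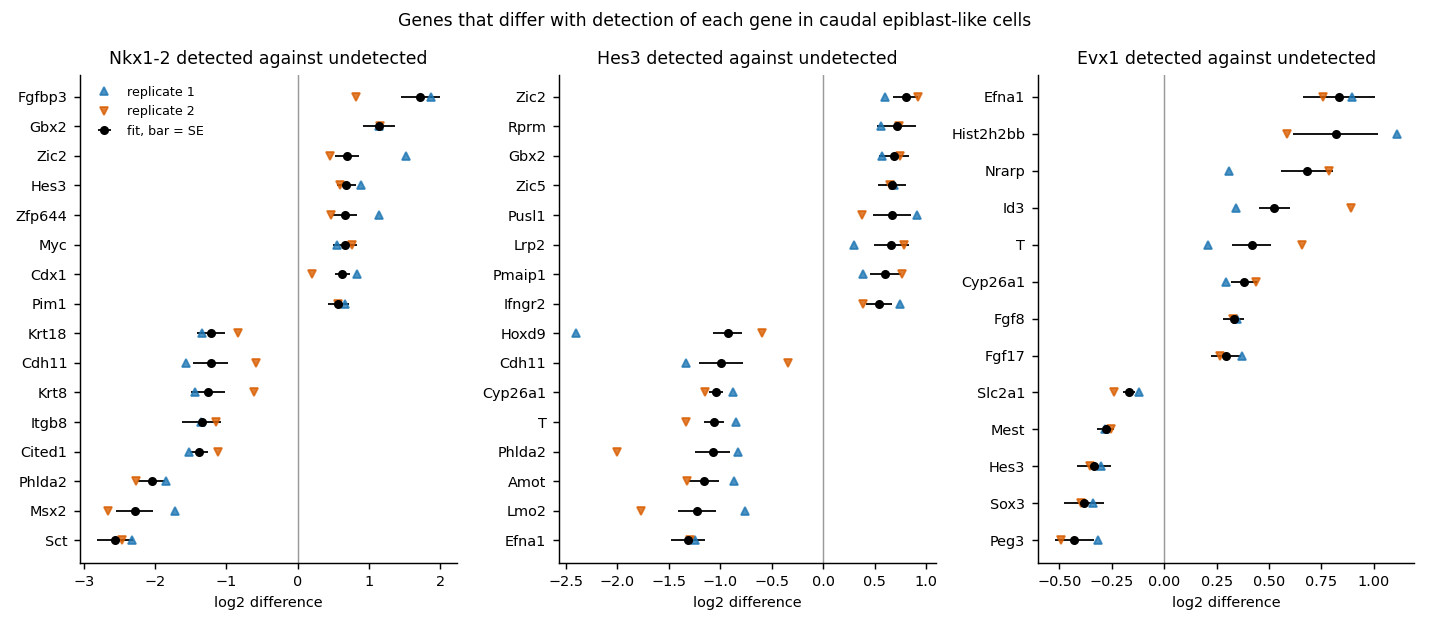
Genes that differed with detection of Nkx1-2, Hes3 or Evx1 in caudal epiblast-like cells, as log2 differences (horizontal axes differ in scale); black points are the edgeR fit with SE bars and triangles the single libraries. T lies at -1.06 with Hes3 and at 0.42 with Evx1.

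The last question was how far the libraries differed in the 8 genes themselves. Of the 8, 2 differed at least 2-fold in caudal epiblast-like cells, on CPM with 5 added, as did 1.19% of all genes compared. Grsf1 was 3.80-fold higher in replicate 1 (interval 3.62 to 3.99), the sixth largest difference among 6052 genes. The ratio was 3.60 in mesoderm-turning and 3.42 in neural-turning cells. In presomitic mesoderm-like cells Grsf1 was at 191 and 127 CPM, and in the other 6 classes of the fit the ratio ran from 1.02 to 1.39. Of 13 mitochondrial RNA granule genes measured at this level, 0 differed 2-fold, where 1.19% of all genes did. No test of that contrast between classes was made, with 1 ratio per class.

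Tril differed in the other direction, 2.36-fold higher in replicate 2 (2.09 to 2.67), and 2.06-fold in mesoderm-turning cells. Evx1 was 1.74-fold, Crmp1 1.64-fold and Nkx1-2 1.30-fold higher in replicate 1. The Nkx1-2 ratio was larger outside the epiblast class, at 2.65 in mesoderm-turning, 2.38 in neural tube-like and 1.89 in lateral plate-like cells. Hoxc10, Pou5f1 and Xist moved with the libraries as given above, and the part of what sets them apart was not tested. Barcodes with under 0.3% mitochondrial UMIs were left out, 11242 in replicate 1 and 5184 in replicate 2. Of these, 773 and 230 passed the caudal epiblast gate, with median depths of 6799 and 5040.5 UMIs. Tril was at 8.63 and 29.6 CPM in them and Hes3 at 105 and 61.4, below the kept cells in both libraries. Nkx1-2 was at 243 and 152 CPM, also below, Evx1 at 148 and 102, above, and Grsf1 at 886 and 290, above.

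**Figure D5:**
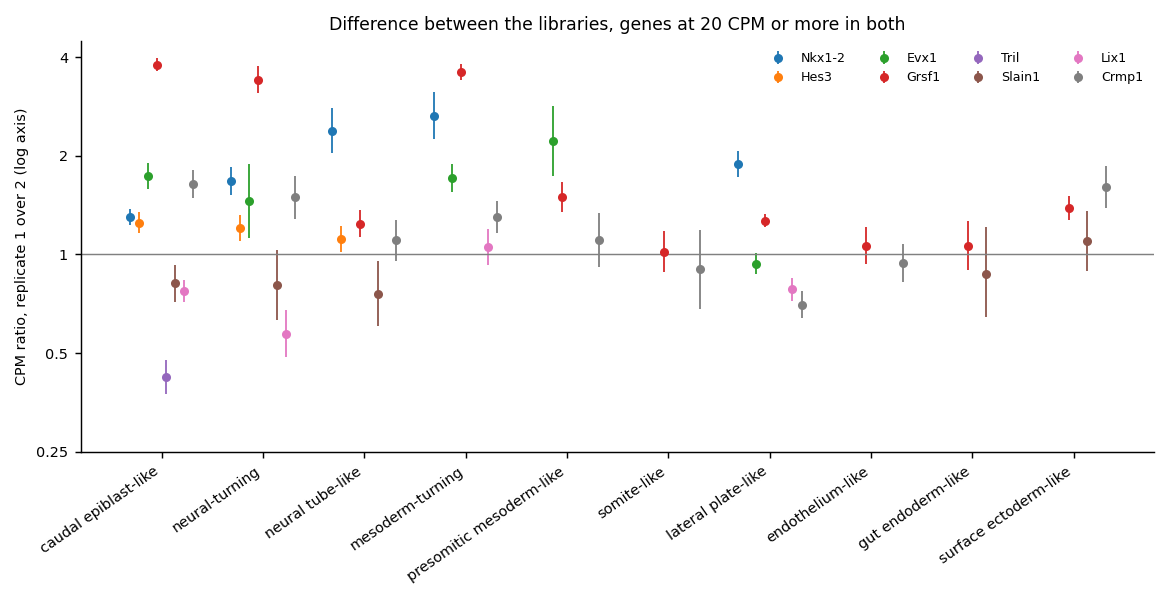
Ratio of CPM in replicate 1 to replicate 2 (log axis) by class for genes at 20 CPM or more in both; bars are 95% intervals from counts. Grsf1 is at 3.80, 3.60 and 3.42 in the caudal epiblast-like, mesoderm-turning and neural-turning classes.

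Genes most like each of the 8 were found by Pearson's r of log2(CPM + 10) over the 10 classes, among 4617 genes, as a description. Hes3 was most like Sox3 (r = 0.986), then Fgfbp3, Nin, Zic5 and Usp7. Evx1 was most like its antisense neighbour Evx1os (0.986), then mt-Nd6, Gm53, Ptk7 and Il17rd. Tril was most like Il17rd (0.951), Nkx1-2 like Fbln2 (0.959), Grsf1 like Pitrm1 (0.963), Slain1 like Nipsnap1 (0.966), Lix1 like Kdm7a (0.943) and Crmp1 like Trp53 (0.953). Among the members, Evx1 and Tril were the closest (0.905), Slain1 and Crmp1 the farthest (0.105), and Hes3 and Evx1 the next (0.158). The 10 values behind each r share the same libraries, and 3 of the classes share epiblast markers.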

How the data were processed

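The deposited matrices hold UMI counts per gene and barcode, made by the authors with Cell Ranger 6.1.1 against mm10, per the submitters' processing notes (no source used here gives their cell filter or use of strand). The files list 30449 and 18245 barcodes. Barcodes with at least 2000 UMIs and 0.3 to 10% mitochondrial UMIs were kept, 11244 and 8328. Cells were gated by detected markers (6 per list, 13 lists, a lead of 2 over other lists). The members, lists and gates were chosen with earlier results of these data known.

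Counts summed by class and library were tested with edgeR 4.0.16 (TMM, filterByExpr, quasi-likelihood test, library as a block, adjusted p under 0.05); 10 classes with at least 50 cells per library shared 1 fit. All classes of a library come from the same tissue, so the block pairs them by design. For detection, cells were thinned to 9000 UMIs, the 20th percentile of caudal epiblast-like cells rounded down. Named genes were the 8 members, and in each detection fit the 8 largest changes each way that passed, agreed in sign between libraries and averaged at least 20 CPM, and for likeness the 5 highest r. On simulated counts with known changes, the neural tube-like against presomitic mesoderm-like fit (12879 genes) recovered 64% of log2 changes of 1 and 99% of 2. The Hes3 fit (10026 genes) recovered 68% and 99%. False calls numbered 4 and 7 in these fits. The simulation gave every gene the same spread and set changes only in well-counted genes. Its shares therefore do not carry over to genes with a wider spread. Against doublets the main run had only the limits of the gates on markers of other lists. Mesoderm-turning and neural-turning cells are gated by markers of 2 types, so doublets of those types could pass. Their median depths were 15642 and 13679, and 20540 and 16814 UMIs. The part of doublets was not tested. As an alternative, Scrublet (scanpy 1.11.5) called 9.81% and 6.57% of barcodes, below the expected 24.4% and 14.6%. Other alternatives were DESeq2 1.42.0, no low-count filter, no block, other barcode limits, stricter gates, and epithelial cells kept, which was added after seeing the data.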

Additional observations from a re-analysis of the deposited data

Results flagged for a closer look

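A transgene sequence, eGFP, is listed among the features of both libraries, which are labelled wild type, and no comparison above uses it. It had 982 UMIs in 680 of 11244 cells of replicate 1 (6.05%) and 447 UMIs in 353 of 8328 cells of replicate 2 (4.24%). A count of 0 would allow a share of up to 0.0267% and 0.0360%. The caudal epiblast-like cells held 25 and 47 of these UMIs.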

How the results depend on the processing

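The count of members highest in a caudal epiblast state was 7, and 6 with 1 more marker required; it was 7 in the other alternatives run. With no replicate block, the neural tube-like against presomitic mesoderm-like fit called 629 genes higher and 560 lower, against 1287 and 1179 with it, and the neural-turning against mesoderm-turning fit 237 and 285, against 695 and 712. Without the block, the 3 detection fits called 0 and 0 genes each by edgeR, where 758 (Nkx1-2), 842 (Hes3) and 638 (Evx1) genes had an unadjusted p under 0.05 with it. DESeq2 called 1 higher and 7 lower with Nkx1-2 detection, 0 and 4 with Hes3, and 0 and 0 with Evx1, and those calls therefore rest on the tool. With 1 more marker required, 78 genes were lower with Nkx1-2 and 17 higher with Hes3, the neural-turning against mesoderm-turning fit could not be fitted, and Hist2h2bb with Evx1 was at -0.0023 in place of 0.82. With barcodes of 0 to 10% mitochondrial UMIs, Hes3 gave 68 and 130 calls, Evx1 34 and 16, and 1 pair of members lay below 1 in both libraries. With Scrublet calls removed, Evx1 gave 16 and 14 calls and 0 pairs lay above 1. With the epithelial cells kept, Nkx1-2 gave 279 and 587 calls, Hes3 331 and 568, and Evx1 21 and 32, and 8 pairs lay above 1. Unthinned counts gave 15 such pairs. Of the other alternatives of single genes, 620 kept side and direction, 133 lost the call, 10 gained it and 76 values without a test moved beyond the spread. Leaving out 1 library leaves no residual degrees of freedom, so these counts have no such value. The cause of these changes was not tested.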

Other observations

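Cells with both Mixl1, a primitive streak gene, and T were gated apart, with at most 1 notochord marker (538 and 222 cells). Of them 36.8% and 49.5% were also mesoderm-turning and 7.43% and 8.56% caudal epiblast-like. Evx1 was at 132 and 102 CPM in these cells, Nkx1-2 at 56.3 and 23.4, Hes3 at 22.4 and 12.6 and Grsf1 at 655 and 213. The epithelial cells set aside from the epiblast gates (181 and 176) had T at 201 and 143 CPM and Evx1 at 116 and 55.8, whereas Nkx1-2 was at 88.5 and 18.1.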
